A study of Mus musculus with 9 samples.

Results

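Genes whose symbol starts with Gpr and a number were followed across Gpd1 knockout (KO) and control brain tumor stem cells (BTSC) of the mouse. All rows of the normalized table with such a symbol were taken, which gave 59 genes of 21899. Poly(A) RNA had been sequenced from 9 libraries in 3 groups of 3. The sgRNA1 KO and sgRNA2 KO groups held BTSC in which Gpd1, the cytosolic glycerol-3-phosphate dehydrogenase gene, had been targeted with Cas9 from a lentiCRISPR vector that was transfected into the cells. These cells were selected with puromycin and grown as colonies from single cells. The control group held BTSC with no KO named in its labels, which do not say whether these cells went through selection or colony picking. Nor do the labels say which libraries came from separate colonies or cultures, so p-values measure the spread between these libraries, which may be partly technical. In the fits each library counted as 1 independent replicate, whichever group it came from.

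Most proteins with a Gpr name are receptors with a bundle of membrane-spanning helices that pass a signal to heterotrimeric G proteins inside the cell. The name marked receptors whose ligand was unknown at the time, called orphans, and many have since been given a ligand. Several are known from the glia of the brain: Gpr17 from committed oligodendrocyte precursors, Gpr37 from oligodendrocytes and Gpr37l1 from astrocytes. A few proteins keep the name although they work in the Golgi apparatus or lysosome, among them Gpr89, Gpr107, Gpr108, Gpr155 and the Gpr137 family.

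The guide sites in Gpd1 are shown because they define the KO groups. Both lie on chromosome 15 of mm10, in exons of a transcript with 8 exons, with the plus strand site in exon 1 from 99717620 to 99717639 and the minus strand site in exon 2 from 99718169 to 99718188. The guides are in lower case and the adjoining PAM is in capitals.
sgRNA1: aaagtctgcattgtcggctcTGG
sgRNA2: tgcattgctacccacgatctTGG

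Values are taken to be read counts per gene that the authors scaled per library and rounded, called normalized read counts here. They summed to between 39781901 and 41718732 in KO libraries and between 41393139 and 42975283 in controls. Gpd1 stood at 5.21% to 82.6% of the control mean in the 6 KO libraries, with the highest share in the library labelled sgRNA1 KO replicate 3. Its limma log2 fold change in KO was -1.99 (SE 0.72, adjusted p = 0.0516). Across all genes tested, sgRNA1 KO replicate 3 and sgRNA2 KO replicate 1 correlated with the controls at r = 0.962 to 0.972, against 0.909 to 0.945 for the other 4 KO libraries. The stem cell genes Sox2, Nes and Olig2 were present in every library, while Prom1 was near 0 with 3 to 31 counts. Of the 8 stem cell markers 2 rose and 1 fell (19.1% and 20.2% of all genes tested). Sox2 averaged 15184 in KO and 7704 in control, and Nes 17410 in KO and 42539 in control. Of the markers of other cells, the sum of the microglia and macrophage list ran from 77 to 96 in KO and from 89 to 117 in control. Endothelial markers summed to 179 to 313 in KO and 662 to 704 in control, and pericyte and fibroblast markers to 20 to 39 in KO and 100 to 118 in control. Most of the endothelial gap was Flt1 (mean of 40.7 in KO and 450 in control), with Kdr (45.5 and 110). Tek went the other way (78 and 44), and Vwf was level (66.3 and 66). Most of the pericyte and fibroblast gap was Rgs5 (2.67 in KO and 65 in control).

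RNA of the Gpr-named genes, which are not all receptors, made up more of the total in KO. The 59 genes took 0.191%, 0.170% and 0.111% of all normalized read counts with sgRNA1 and 0.114%, 0.151% and 0.132% with sgRNA2, against 0.0960%, 0.0841% and 0.0869% in control. All 6 KO libraries lay above all 3 controls. In these bulk libraries, a change in the number of cells that carry such RNA and a change in RNA per cell cannot be told apart. A single gene, Gpr37l1, held 38.4% of the summed counts in KO and 39.4% in control.

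Levels between genes were compared as normalized read count per kilobase of annotated exon. Gpr37l1, proposed with Gpr37 as a receptor for prosaposin, was highest in both groups, at 9954 ± 3630 in KO (SD, n = 6) and 6521 ± 742 in control (SD, n = 3). Gpr19, an orphan receptor, followed in KO with 1516 ± 385 (951 ± 31.2 in control), and Gpr180, a membrane protein linked to TGF-beta signaling, followed in control with 963 ± 31.2 (665 ± 139 in KO). In control the levels of Gpr180 and Gpr19 lay within 1 SD of each other, so their order there is not resolved. Gpr137, a lysosomal membrane protein, stood at 573 ± 59.4 in KO and 499.8 ± 8.86 in control, and Gpr161, a cilium receptor that restrains Hedgehog signaling, at 544 ± 146 in KO and 423 ± 8.80 in control.

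Only 13 of the 59 genes reached 100 per kilobase in control, and 30 stood under 10. Gpr37 moved furthest in the order, to rank 28 in KO against 56 in control, at a low level in both. Among the genes in the upper part of the order, Gpr17 ranked 3 in KO and 17 in control (820 ± 671 in KO, SD, n = 6; 57.0 ± 27.1 in control, SD, n = 3). The lengths assume the annotated exons, and with the longest transcript in place of all exons the control level of Gpr19 became 1338 and that of Gpr137 became 914, which put Gpr19 above Gpr180.

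**Figure D1:**
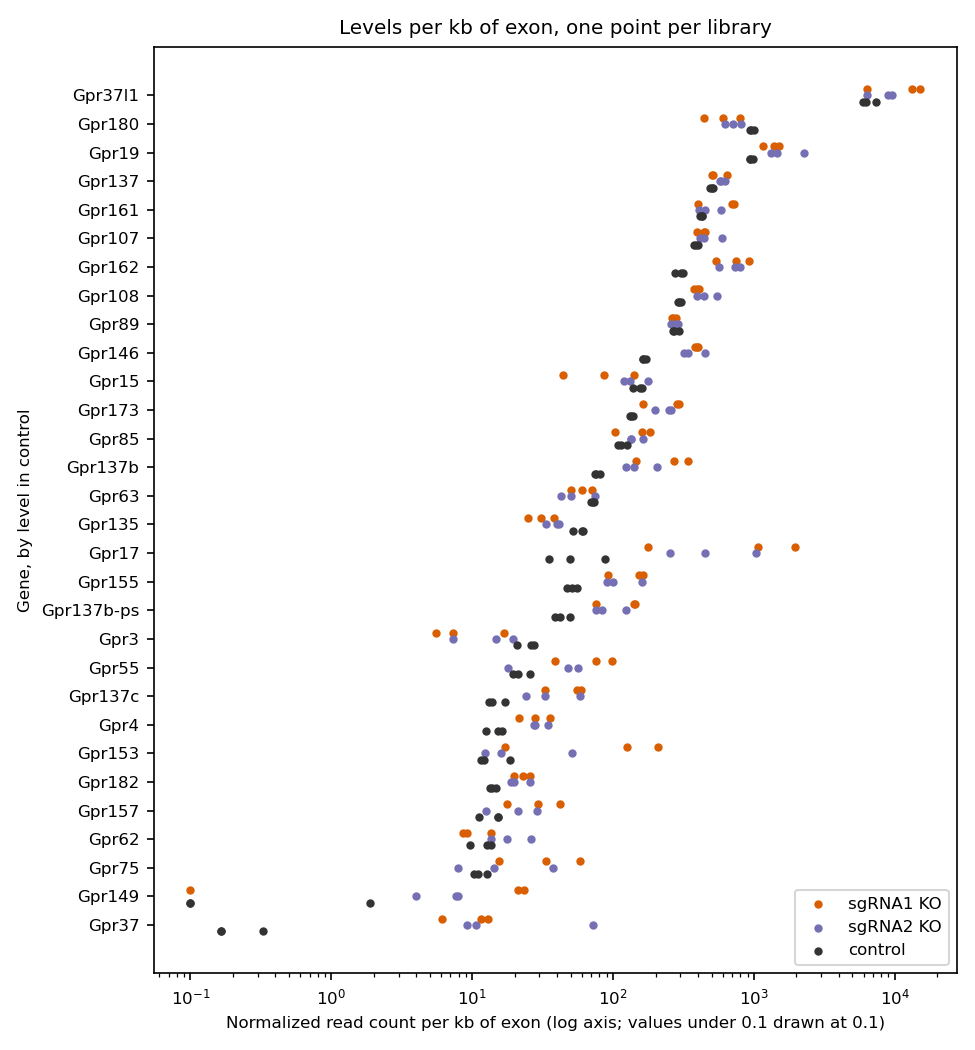
Normalized read count per kilobase of exon (log axis) for Gpr-named genes with a mean of at least 10 per kilobase in KO or control, with 1 point per library and genes ordered by their level in control. Gpr37l1 stands apart at the top, and Gpr17 and Gpr37 show the widest gap between KO points and control points.

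For tests, limma was fitted to log2(value + 1) of 15827 genes, those averaging 10 or more across all 9 libraries, a filter that 40 of the 59 genes passed. As 6 of the 9 libraries are KO, this filter keeps genes high in KO more readily than genes high in control. Gpr37 and Gpr61 averaged 1.33 and 6.33 in control and passed it through their KO values. Gpr34, at 13 in control and 4.83 in KO, did not pass it. The same filter was applied to all genes. In KO against control, 16 of the 40 rose and 3 fell at an adjusted p under 0.05. Over all genes tested, 19.1% were called higher and 20.2% lower, or 39.3% in either direction, against 40% and 7.5% of these 40. At least a 2-fold change was seen in 11 that rose and 1 that fell, where 9.4% and 8.78% of all genes tested passed the same rule. Without the filter, 17 of the 59 rose and 6 fell at an adjusted p under 0.05, in a fit that called 29.7% of all genes. Without sgRNA1 KO replicate 3 and sgRNA2 KO replicate 1, 21 rose and 3 fell, in a fit that called 48.3% of all genes. Those 2 KO libraries lay nearest the controls, so leaving them out favors larger changes. The median log2 fold change was 0.64 for the 40 genes and -0.01 for all genes tested. In the heat map of log2 ratios, the genes that rose and those that fell are marked. The 16 that rose were the tested members with every KO value above every control value (21.1% of all genes tested), and the 3 that fell were those with every KO value below (23.8%).

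**Figure D2:**
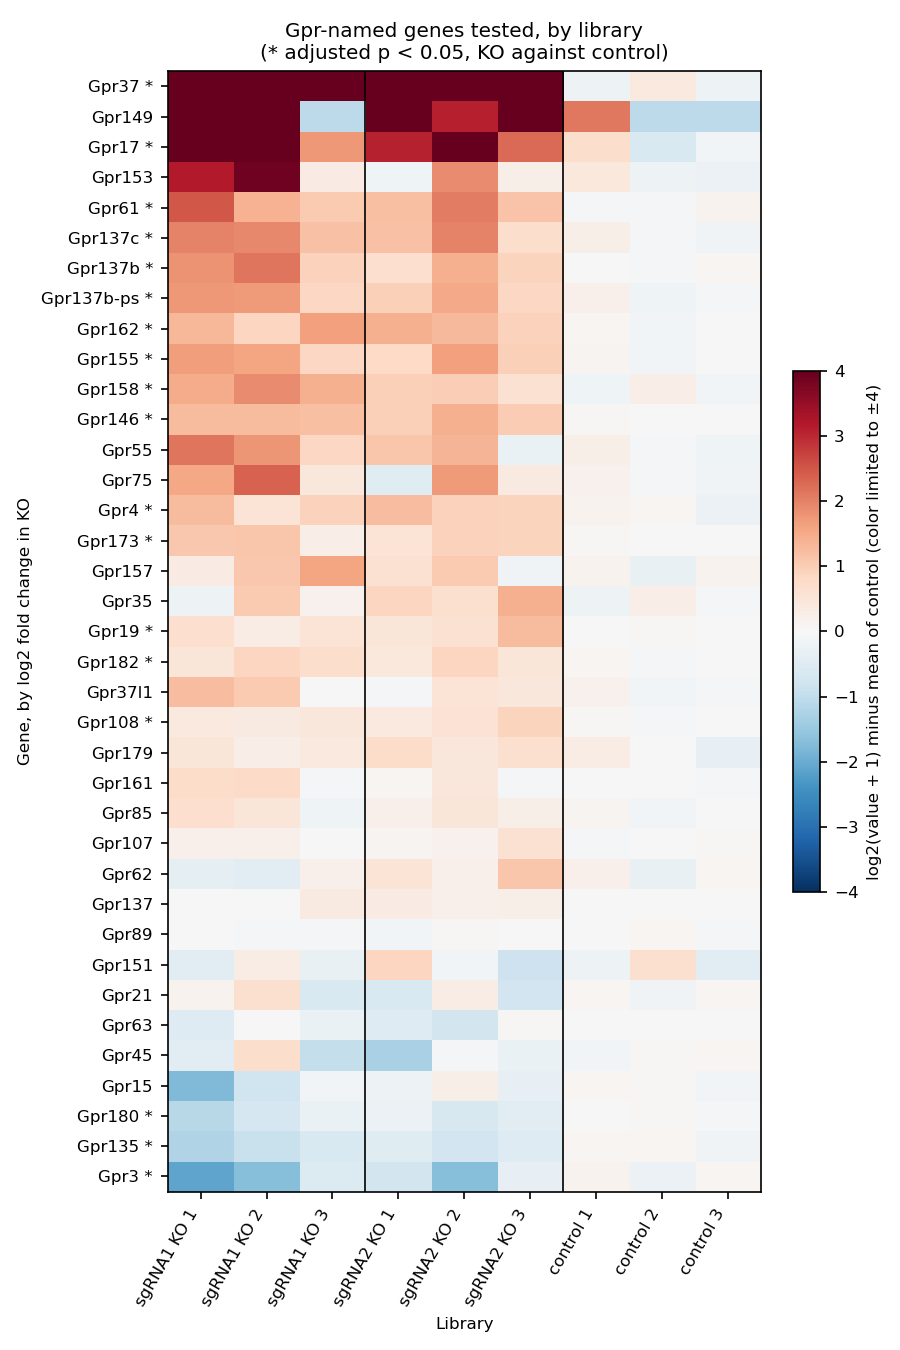
Log2(value + 1) minus the control mean for tested Gpr-named genes (rows, ordered by the log2 fold change in KO against control) in the 9 libraries (columns), with an asterisk where the adjusted p in limma was under 0.05. The rows at the top are higher across the KO columns, with Gpr149 and Gpr153 as rows in which some KO libraries stay near the controls.

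The prosaposin receptor pair Gpr37 and Gpr37l1 differed in size of change. Gpr37 (chromosome 6, 25665878 to 25690729) had 70, 79 and 37 normalized read counts with sgRNA1 and 56, 437 and 65 with sgRNA2, against 1, 2 and 1 in control. It was near absent in control and present in every KO library, with sgRNA2 KO replicate 2 far above the rest. Mean counts differed by a ratio of 93.0 (95% interval by Clopper-Pearson, 36.2 to 342), and the log2 change was 5.20 (limma SE 0.65, adjusted p = 0.000895). The interval treats summed scaled values as counts, so it only approximates counting error, and it leaves out the spread between libraries.

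Gpr37l1 (chromosome 1, 135160234 to 135167681) had 34483, 30210 and 14454 with sgRNA1 and 14377, 21676 and 20320 with sgRNA2, against 16706, 13531 and 14151 in control. The groups overlapped, since sgRNA1 KO replicate 3 and sgRNA2 KO replicate 1 lay within the control range. By limma, its log2 change was 0.54 (SE 0.28, adjusted p = 0.148), which missed the threshold. Without those 2 libraries it was 0.82 (adjusted p = 0.0117 in limma). They held its lowest KO values, so a larger change was fixed in advance and lends no support. With variance weights per group, in a fit that called 55.9% of all genes, the adjusted p was 0.0390. Psap, which encodes the proposed ligand prosaposin, rose to 60006 ± 13315 in KO (SD, n = 6), against 31679 ± 241 in control (SD, n = 3), with a log2 fold change of 0.89 (limma SE 0.17, adjusted p = 0.00476).

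Among receptors for lipids and small metabolites, 3 of 7 were tested and 1 rose (19.1% of all genes tested). This was Gpr17 (chromosome 18, 31942997 to 31949636), with 10109, 5553 and 912 normalized read counts with sgRNA1 and 2314, 5360 and 1326 with sgRNA2, against 453, 181 and 255 in control. The lowest KO library, sgRNA1 KO replicate 3, still lay above the highest control. The log2 change was 3.48 (limma SE 0.71, adjusted p = 0.00595).

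Gpr55, a receptor for lysophosphatidylinositol, had 364, 280 and 144 with sgRNA1 and 178, 211 and 67 with sgRNA2, against 95, 78 and 72 in control. Only sgRNA2 KO replicate 3 fell below the controls, and the log2 fold change of 1.16 (limma SE 0.45, adjusted p = 0.0646) missed the threshold. Without that library it was 1.45 (adjusted p = 0.00654 in limma). The library was picked here for its low value, so a larger change was fixed in advance and lends no support. With variance weights per group, in a fit that called 55.9% of all genes, the adjusted p was 0.00938. Gpr35, for which kynurenic acid has been proposed as a ligand, had a log2 fold change of 0.66 (adjusted p = 0.174 in limma) on 9 to 30 counts in KO and 9 to 13 in control.

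Some markers of glial types moved beside Gpr17 and Gpr37. The counts in the marker lists stand beside 19.1% of all genes tested called higher and 20.2% called lower. In the oligodendrocyte precursor list of 6 genes, which holds Gpr17 itself, 3 of 5 tested rose and 0 fell, and its sum was 79057 to 108117 in KO and 71133 to 80875 in control, most of it Olig1. Of that list, Pdgfra had 4251, 5154 and 921 with sgRNA1 and 1390, 3933 and 1105 with sgRNA2, against 613, 420 and 436 in control. For Gpr17 and Pdgfra alike, sgRNA1 KO replicates 1 and 2 and sgRNA2 KO replicate 2 held the highest values. Other genes of the list did not share this order. Cspg4 and Olig1 were highest in sgRNA1 KO replicate 3 (2405 and 103831). Sox10 had 873, 98 and 26 with sgRNA1 and 104, 94 and 33 with sgRNA2, against 50, 26 and 31 in control.

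In the oligodendrocyte list of 7 genes, 1 of 4 tested rose and 1 fell, with a sum of 9612 to 26360 in KO and 4338 to 5793 in control, while Mog and Mag were near 0 with at most 4 counts in any library. The astrocyte list of 8 genes had 4 of 8 risen and 0 fallen, with a sum of 164290 to 328113 in KO and 102847 to 111578 in control. Not all of its genes were higher in KO. Gfap had 16039, 23509 and 373 with sgRNA1 and 999, 916 and 2118 with sgRNA2, against 4827, 3348 and 3480 in control. Slc1a3 averaged 40492.5 in KO and 42008 in control. The neuron list, with 6 of 7 genes in the table, had 1 of 5 tested risen and 0 fallen, and its sum, nearly all Map2, was 47474 to 125766 in KO and 42752 to 44054 in control, while Snap25 was at 10 or less in every library. The part of these cell types in the receptor changes was not tested.

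Gpr158, an orphan receptor of class C, a group with GABA-B and glutamate receptors, binds the RGS7 complex and has been proposed as a glycine receptor. It had 78, 103 and 75 with sgRNA1 and 53, 54 and 42 with sgRNA2, against 24, 33 and 25 in control. Its sgRNA1 KO libraries all lay above its sgRNA2 KO libraries. The log2 change was 1.23 (limma SE 0.29, adjusted p = 0.0110), and without control replicate 3 the adjusted p was 0.0528. Gpr179, a class C receptor of retinal bipolar cells, had 71 to 98 counts in KO and 47 to 73 in control, with a log2 fold change of 0.50 (adjusted p = 0.0725 in limma).

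**Figure D3:**
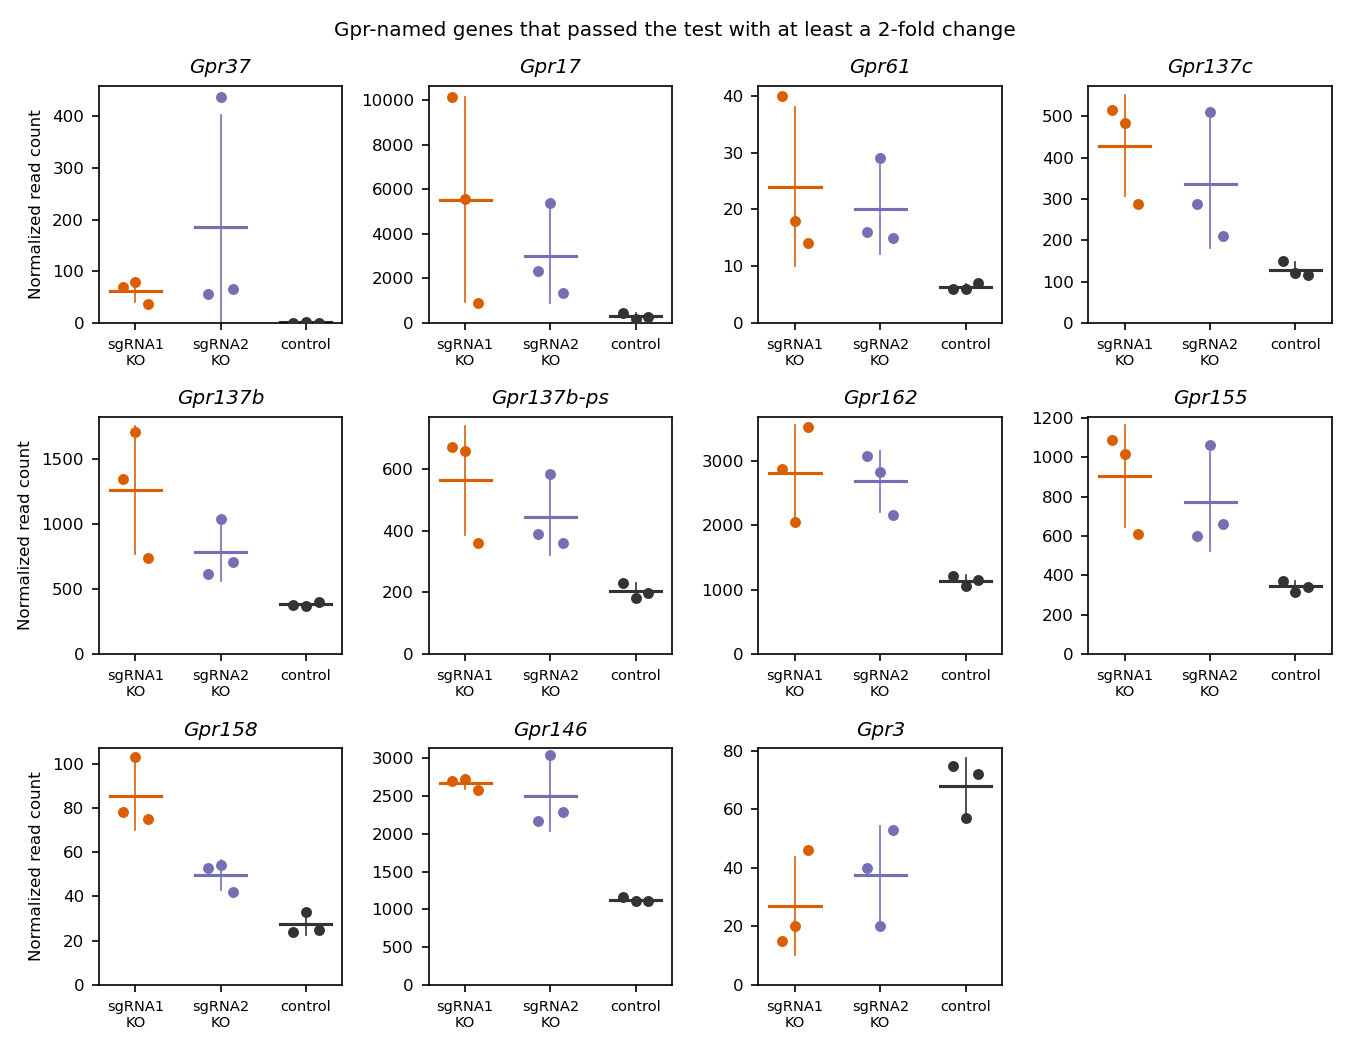
Normalized read count per library of 11 of the 12 Gpr-named genes that passed the test with at least a 2-fold change in KO against control. Horizontal bars are means and vertical bars SD (n = 3 per group), ended at 0 where they would pass below it, and each axis starts at 0. Gpr3 is lower in KO and the other genes shown are higher.

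Proteins that keep a Gpr name but work in the lysosome, Golgi apparatus or other membranes were all tested, and 4 of 8 rose and 1 fell (19.1% and 20.2% of all genes tested), beside 1 pseudogene that rose. Gpr137b (chromosome 13, 13357620 to 13394014), a lysosomal membrane protein that acts on Rag GTPases and mTORC1, had 1349, 1706 and 735 with sgRNA1 and 616, 1036 and 707 with sgRNA2, against 378, 372 and 404 in control. The control values lay close together and below all KO values, and the log2 change was 1.31 (limma SE 0.31, adjusted p = 0.0101). Its related transcribed pseudogene Gpr137b-ps, 707 kb away on the same chromosome, had 672, 660 and 359 with sgRNA1 and 390, 584 and 359 with sgRNA2, against 232, 181 and 198 in control (log2 1.26, limma SE 0.25, adjusted p = 0.00562). Of the 50-base windows in the longest Gpr137b transcript, 39.2% occur in transcripts of the pseudogene. Of those in the longest pseudogene transcript, 19.8% occur in transcripts of Gpr137b. Reads from these shared stretches could not be assigned within the pair with certainty.

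Gpr137c, a relative of the same family, had 515, 483 and 289 with sgRNA1 and 289, 511 and 211 with sgRNA2, against 151, 121 and 115 in control. It was higher in 6 of 6 KO libraries, with a log2 fold change of 1.49 (limma SE 0.31, adjusted p = 0.00597). Gpr137 had 1733, 1696 and 2197 with sgRNA1 and 2122, 1949 and 1984 with sgRNA2, against 1726, 1666 and 1700 in control. Its KO and control values overlapped, and the log2 fold change of 0.19 (limma SE 0.11, adjusted p = 0.194) missed the threshold; with quantile normalization it was 0.32 (adjusted p = 0.0291).

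Gpr155, which acts as a cholesterol sensor of the lysosome in human cells, had 1088, 1017 and 611 with sgRNA1 and 600, 1063 and 662 with sgRNA2, against 373, 316 and 342 in control. All KO values lay above the controls, and the log2 change was 1.24 (limma SE 0.24, adjusted p = 0.00448). Gpr108, a Golgi protein, had 1120, 1080 and 1156 with sgRNA1 and 1119, 1269 and 1573 with sgRNA2, against 872, 824 and 843 in control. The change was smaller, with a log2 fold change of 0.51 (limma SE 0.14, adjusted p = 0.0158), and the adjusted p was 0.0721 without control replicate 2 and 0.0643 without control replicate 3.

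Gpr180 fell, with 830, 1132 and 1498 with sgRNA1 and 1519, 1160 and 1339 with sgRNA2, against 1782, 1872 and 1762 in control. All KO libraries lay below the controls, and the log2 change was -0.56 (limma SE 0.19, adjusted p = 0.0367). Leaving out control replicate 1, 2 or 3 ended the call (adjusted p = 0.0947, 0.124 or 0.0999), as did leaving out sgRNA1 KO replicate 2 (0.0611), leaving out sgRNA2 KO replicate 2 (0.0682) and quantile normalization (0.0510). Gpr107, which acts in transport from endosomes to the Golgi apparatus, and Gpr89, a Golgi anion channel also called a pH regulator, had log2 fold changes of 0.22 (adjusted p = 0.197 in limma) and -0.03 (adjusted p = 0.836). Gpr89 was among the steadiest of the genes, with 1377 to 1547 counts in KO and 1416 to 1573 in control.

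Receptors with constitutive activity toward the stimulatory G protein were represented by Gpr3, which holds mouse oocytes in meiotic arrest. Gpr3 (chromosome 4, 133209340 to 133212536) had 15, 20 and 46 normalized read counts with sgRNA1 and 40, 20 and 53 with sgRNA2, against 75, 57 and 72 in control. All KO values lay below the controls, though sgRNA2 KO replicate 3 came within 4 counts of the lowest control. The log2 change was -1.19 (limma SE 0.41, adjusted p = 0.0438), the lowest of the 40 genes tested. Leaving out control replicate 1, 2 or 3 ended the call (adjusted p = 0.128, 0.0947 or 0.130), as did leaving out sgRNA1 KO replicate 1 (0.0635), its replicate 2 (0.0729) or replicate 2 of sgRNA2 KO (0.0813).

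The 250 bases upstream of an annotated start are shown in the direction of the gene, as RefSeq gives them in build GRCm38.p6. They are from Gpr146, the gene with the smallest adjusted p, and Gpr3, the largest fall. The Gpr146 window lies on the plus strand at chr5:139377447-139377696 and the Gpr3 window on the minus strand at chr4:133212537-133212786, and neither overlaps an exon in GENCODE M21. Capitals mark matches on either strand to a GC box (GGGCGG), the core of a cAMP response element (TGACG) or a SOX core (AACAAT), and matches may overlap.
Gpr146: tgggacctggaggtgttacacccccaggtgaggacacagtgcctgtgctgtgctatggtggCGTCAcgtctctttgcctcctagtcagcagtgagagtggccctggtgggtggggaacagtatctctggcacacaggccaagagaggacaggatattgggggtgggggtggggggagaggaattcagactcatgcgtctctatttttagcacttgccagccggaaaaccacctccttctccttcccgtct
Gpr3: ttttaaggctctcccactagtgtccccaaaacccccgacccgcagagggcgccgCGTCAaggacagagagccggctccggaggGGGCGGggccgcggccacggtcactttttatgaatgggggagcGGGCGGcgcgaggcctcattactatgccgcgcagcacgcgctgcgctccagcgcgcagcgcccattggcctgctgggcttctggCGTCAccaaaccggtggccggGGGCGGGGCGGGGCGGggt
The Gpr146 window shown holds 1 response element core and 0 GC boxes, and the Gpr3 window holds 2 response element cores and 5 GC boxes. Neither holds a SOX core. Another RefSeq window of Gpr146, not shown, holds both a GC box and a response element core.

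RefSeq windows were matched to 41 of the 59 genes by symbol, 12 of them among the 19 called, and a gene with several windows was counted if any window held the motif. A GC box was found upstream of 7 of the 9 matched genes that rose, 3 of the 3 that fell and 19 of the 41 matched, against 35.4% of the 27025 genes in the RefSeq promoter table. The response element core TGACG was found for 4 of the 9 that rose, 3 of the 3 that fell and 10 of the 41, against 19.8% of the genes in that table. The SOX core AACAAT was found for 0 of the 9 and 1 of the 3 (10.9% of the genes in that table). The called genes had passed the filter on mean level, while genes of that table were counted whatever their level. The shares thus come from unlike sets, and no excess of a motif is read from them. These matches describe letters in the windows and do not mark bound sites.

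Other orphan and adopted receptors included 4 that rose and 1 that fell among 14 tested (19.1% and 20.2% of all genes tested). Gpr162 (chromosome 6, 124858444 to 124863983), an orphan related to Gpr153, had 2876, 2047 and 3522 normalized read counts with sgRNA1 and 3075, 2819 and 2152 with sgRNA2, against 1212, 1052 and 1156 in control. Its highest value was in sgRNA1 KO replicate 3, the KO library with the highest Gpd1 value, and the log2 change was 1.25 (limma SE 0.18, adjusted p = 0.00139). Gpr153 itself had 493, 810 and 67 with sgRNA1 and 48, 200 and 63 with sgRNA2, against 73, 47 and 45 in control. In 3 KO libraries it lay within the control range, and the log2 fold change of 1.56 (limma SE 0.88, adjusted p = 0.178) missed the threshold.

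Gpr146, which raises blood cholesterol through the liver in mice, had 2694, 2720 and 2582 with sgRNA1 and 2171, 3035 and 2290 with sgRNA2, against 1162, 1109 and 1107 in control. Its 6 KO values differed little from each other for a gene that changed (SD 0.18 on the log2 scale). The log2 fold change of 1.19 (SE 0.12) had the smallest adjusted p of the 40 genes (0.000454 in limma).

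Gpr61, an orphan receptor that affects feeding in mice, had 40, 18 and 14 with sgRNA1 and 16, 29 and 15 with sgRNA2, against 6, 6 and 7 in control. Its level was low in both groups, and no KO value overlapped the controls, with a log2 fold change of 1.55 (limma SE 0.35, adjusted p = 0.00912). Gpr182, an atypical chemokine receptor of endothelium, had 74 to 101 counts in KO and 53 to 58 in control. The log2 change was 0.63 (limma SE 0.18, adjusted p = 0.0223), and the call was lost with quantile normalization (0.0629) and without control replicates 1, 2 and 3 (0.0628, 0.0960 and 0.0843).

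Gpr135, an orphan receptor, fell, with 78, 97 and 119 with sgRNA1 and 129, 106 and 126 with sgRNA2, against 191, 190 and 163 in control. All KO libraries lay below the controls, and the log2 change was -0.74 (limma SE 0.20, adjusted p = 0.0165). It missed without control replicate 1 (adjusted p = 0.0680) or 2 (0.0782). Gpr149, an orphan receptor known from mouse oocytes, had 90, 100 and 0 with sgRNA1 and 34, 17 and 33 with sgRNA2, against 8, 0 and 0 in control, and did not pass (limma adjusted p = 0.0647). The remaining tested genes of this group, Gpr15, Gpr21, Gpr45, Gpr62, Gpr75, Gpr151 and Gpr157, had log2 fold changes from -0.49 to 0.98, and none passed.

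Of the receptors that sense protons, Gpr4 rose, with 62 to 102 counts in KO and 36 to 47 in control (log2 0.96, limma SE 0.21, adjusted p = 0.00784). Gpr65, which senses protons too, had at most 4 counts in any library.

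Of the SREB family, brain receptors conserved among vertebrates, Gpr173 rose and Gpr85 did not pass. Gpr173 had 828 to 1498 counts in KO and 672 to 706 in control (log2 0.81, limma SE 0.19, adjusted p = 0.00993). For Gpr85 the values were 418 to 744 in KO and 440 to 510 in control (log2 0.31, adjusted p = 0.193 in limma). Gpr27, the remaining member, reached 38 counts in sgRNA2 KO replicate 3, while it stood at 1 to 9 elsewhere in KO and at 1 to 3 in control.

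Receptors found in the primary cilium, or set with them here, included Gpr19, Gpr161 and Gpr63, of which Gpr19 rose. Gpr19 had 4410, 3404 and 4045 with sgRNA1 and 3862, 4220 and 6613 with sgRNA2, against 2721, 2881 and 2725 in control. All KO values lay above the controls (log2 0.64, limma SE 0.18, adjusted p = 0.0208), and the call was lost without control replicates 1, 2 and 3 (0.0689, 0.0666 and 0.0758). Gpr161 had 4886, 5024 and 2780 with sgRNA1 and 3114, 4055 and 2848 with sgRNA2, against 2979, 2985 and 2876 in control. The third library of each guide lay below all controls, and the log2 fold change of 0.32 (limma SE 0.21, adjusted p = 0.245) missed. Gpr63, an orphan receptor of the brain, had a log2 fold change of -0.33 (adjusted p = 0.220 in limma).

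The 19 genes that did not pass the filter had a mean of at most 9.89 and no value above 38. They included Gpr18, Gpr20, Gpr22, Gpr26, Gpr27, Gpr34, Gpr39, Gpr50, Gpr65, Gpr83, Gpr84, Gpr141, Gpr142, Gpr152, Gpr160, Gpr165, Gpr176 and Gpr183. Gpr34 and Gpr84, receptors known from microglia, had 2 to 9 and 3 to 11 counts in KO and 10 to 15 and 5 to 7 in control. Gpr26 was listed at 0 in all controls and at 10, 18, 0, 2, 16 and 6 in KO. Without the filter, Gpr26 was called higher (adjusted p = 0.0352 in limma) and Gpr34 and Gpr141 lower (0.0296 and 0.0484). That fit called 29.7% of all genes.

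The 2 guides were set against 1 shared set of 3 controls, so these comparisons are not independent. With sgRNA1, 15 of the 40 genes rose and 3 fell, against 17.1% higher and 18.9% lower among all genes tested (36% in either direction). With sgRNA2, 15 rose and 0 fell, against 11.4% and 10.7% (22.1% in either direction). There were 13 genes called higher with both guides, as were 10% of all genes tested. Gpr37 had a log2 fold change of 4.71 (limma SE 0.72, adjusted p = 0.00499) with sgRNA1 and 5.69 (SE 0.72, adjusted p = 0.00290) with sgRNA2. For Gpr17 the values were 3.75 (limma SE 0.85, adjusted p = 0.0136) with sgRNA1 and 3.20 (SE 0.85, adjusted p = 0.0297) with sgRNA2.

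Genes called with sgRNA1 alone were Gpr55 (log2 1.58, adjusted p = 0.0307 in limma), Gpr182 (0.68, 0.0415), Gpr180 (-0.69, 0.0336), Gpr135 (-0.90, 0.0174) and Gpr3 (-1.45, 0.0404). With sgRNA2 alone, Gpr19 (log2 0.78, adjusted p = 0.0278 in limma) and Gpr108 (0.63, 0.0213) were called. A call with 1 guide does not show that the guides differ. The count of 18 with sgRNA1 was 10, 5 and 9 without control replicates 1, 2 and 3, where the share of all genes called was 17.8%, 8.01% and 9.74%. It was 9 without sgRNA1 KO replicate 1 (12.3% of all genes) and 10 without sgRNA1 KO replicate 2 (14.8%). The count of 15 with sgRNA2 was 3 in each fit without control replicate 1, 2 or 3 (8.34%, 4.06% and 4.35% of all genes) and 3 without sgRNA2 KO replicate 2 (9.04%). Calls over all genes thus dropped in the same fits.

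The guides were then compared with each other. Of the 40 genes, 0 passed in sgRNA1 KO against sgRNA2 KO in limma, as did 0% of all genes tested, and 3 had an unadjusted p under 0.05 (2.99% of all genes). Among these were Gpr158 (log2 0.76, SE 0.25) and Gpr62 (log2 -0.83, SE 0.33), each with an adjusted p of 0.778 in limma.

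KO libraries differed more from each other than controls did. The SD of log2(value + 1) over the 6 KO libraries was above that over the 3 controls in 38 of the 40 genes, the exceptions being Gpr89 and Gpr179, with medians of 0.54 in KO and 0.14 in control. The SD over 6 libraries also holds any difference between the guides. Over all genes tested, the median SD within a group was 0.32 with sgRNA1, 0.34 with sgRNA2 and 0.09 in control. The wider spread in KO is thus not particular to these genes. Gpr149 (2.44), Gpr153 (1.70) and Gpr17 (1.34) were among the most variable in KO. The 16 genes that rose had median log2 ratios to the control mean of 1.58, 1.47 and 0.98 with sgRNA1 and 0.95, 1.43 and 0.91 with sgRNA2. For 7 of the 16 the highest KO value was in sgRNA1 KO replicate 1.

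Genes that act with these receptors were described from lists of G proteins and their regulators. The counts in these lists stand beside 19.1% of all genes tested called higher and 20.2% called lower, and nothing particular to a list is read from them. Of 12 G protein alpha subunits tested, 0 rose and 5 fell. Gna14, of the Gq class, had 529 ± 336 normalized read counts in KO (SD, n = 6) and 2659 ± 153 in control (SD, n = 3; log2 -2.66, limma SE 0.61, adjusted p = 0.00921). Gnaz, of the inhibitory class, had 304 ± 53.3 in KO and 630 ± 26.3 in control (log2 -1.07, adjusted p = 0.00259). Among 11 beta and gamma subunits tested, 2 rose: Gng7 (log2 1.76, adjusted p = 0.000995) and Gng8 (log2 1.04, adjusted p = 0.0289 in limma).

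Adenylyl cyclases, which make cyclic AMP, had 3 of 8 risen and 1 fallen. Adcy8 had 520 ± 257 in KO (SD, n = 6) and 55.3 ± 17.5 in control (SD, n = 3; log2 3.07, limma SE 0.47, adjusted p = 0.00190). Adcy2 (log2 2.73, adjusted p = 0.00712) rose as well, and Adcy3 (log2 -0.64, adjusted p = 0.0130 in limma) fell. In the phospholipase C beta list, 1 of 4 rose, which was Plcb2 with 23.8 ± 7.39 in KO and 5 ± 2 in control (log2 2.05, adjusted p = 0.00270 in limma).

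RGS proteins, which speed up the shutting off of G proteins, had 2 of 14 risen and 5 fallen. Rgs4 had 19.8 ± 15.5 in KO (SD, n = 6) and 405 ± 43.3 in control (SD, n = 3; log2 -4.53, limma SE 0.47, adjusted p = 0.000476). Rgs5, also a pericyte marker, had 2.67 ± 1.51 in KO and 65 ± 10.5 in control (log2 -4.26, adjusted p = 0.000326). Rgs2 (log2 0.65) and Rgs12 (log2 0.51) rose, with adjusted p of 0.0350 and 0.0291 in limma.

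Receptor kinases and arrestins, which end receptor signaling, had 4 of 12 risen and 2 fallen. Adrbk2, a receptor kinase gene also called Grk3, had 14893 ± 6883 in KO (SD, n = 6) and 4854 ± 57.8 in control (SD, n = 3; log2 1.49, limma SE 0.35, adjusted p = 0.0102). Arrdc1 (log2 0.77, adjusted p = 0.0193) rose too, while Grk6 (log2 -0.70, adjusted p = 0.0186) and Arrb2, the beta-arrestin-2 gene, (log2 -0.44, adjusted p = 0.0165 in limma) fell.

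Adhesion receptors, once also numbered as Gpr genes in part, had 5 of 18 risen and 3 fallen. Adgrg1, formerly Gpr56 and known from oligodendrocyte precursors, had 49009 ± 8893 in KO (SD, n = 6) and 22377 ± 1056 in control (SD, n = 3; log2 1.11, limma SE 0.15, adjusted p = 0.00113). Celsr3 rose (log2 1.46, adjusted p = 0.00491), and Adgrg6 (log2 -1.10, adjusted p = 0.000780) and Adgre5 (log2 -0.85, adjusted p = 0.0155 in limma) fell. The median log2 fold change was -0.02 for alpha subunits, 0.12 for beta and gamma subunits, 0.15 for cyclases, 0.07 for phospholipases, -0.56 for RGS proteins, 0.48 for kinases and arrestins and 0.23 for adhesion receptors, against -0.01 for all genes tested.

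**Figure D4:**
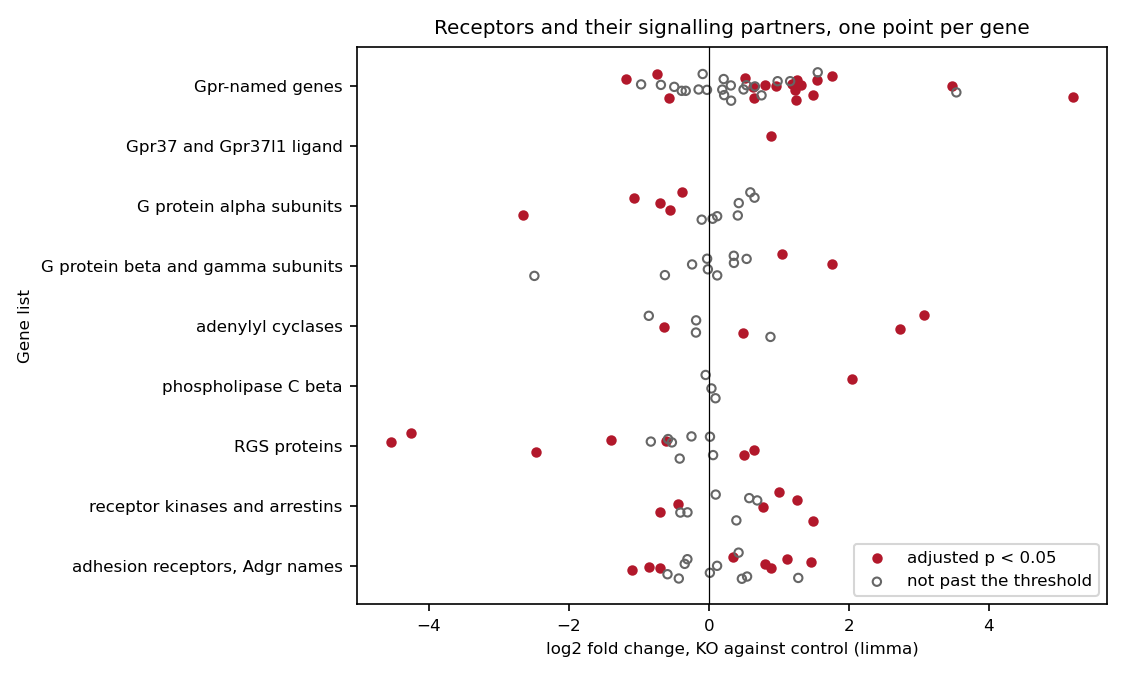
Log2 fold change in KO against control (limma, horizontal axis) of each tested Gpr-named gene and of each tested gene in the signalling lists, with filled points where the adjusted p was under 0.05 and vertical jitter within a list for visibility only. RGS proteins reach -4.53 (Rgs4) and adenylyl cyclases reach 3.07 (Adcy8), while Gpr-named genes run from -1.19 (Gpr3) to 5.20 (Gpr37).

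In the annotation, exons of 23 of the 59 genes overlap exons of another gene, 8 of them among the 19 called. Gpr17 overlaps Lims2 by 188 bases of its 5.195 kb of exon, and Gpr3 overlaps Cd164l2 by 204 bases of 2.734 kb. Gpr137c overlaps Txndc16 by 159 bases of 8.776 kb and Gpr182 overlaps Zbtb39 by 74 bases of 3.954 kb. Each of these is on the opposite strand. The sources used here do not state whether reads were counted by strand, so reads from the shared bases of such pairs may not be told apart.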

How the data were processed

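Per the labels, poly(A) RNA of 9 BTSC libraries was sequenced, and groups were taken from the labels' source names. STAR 2.4.1d, featureCounts, DESeq2 and build mm10 are named, per the submitters' processing notes, which give no roles; the annotation release is not given in the sources used here. The authors deposited a score for each gene in each library, taken here to be a read count that was scaled per library and rounded, from the table's name and whole values. Raw counts were not used.

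Identifiers were joined to GENCODE M21 (21817 of 21899 matched) for positions, exon overlaps and exon length. Values entered as log2(value + 1), which understates changes of low genes. Genes with a mean of at least 10 were tested two-sided with limma 3.58.1 in R 4.3.3, using a trended prior variance, Benjamini-Hochberg adjustment over every gene tested and a threshold of 0.05. KO against control was fitted with 2 groups, the other comparisons in 1 fit with 3 groups. The code was tested on simulated data.

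Genes given with every value were those called with at least a 2-fold change, the 5 with the highest control level per kilobase and up to 6 called with 1 guide. Up to 2 risen and 2 fallen genes of each signalling list were named. Others, such as Gpr27, Gpr149 and Gpr153, were named by range or value to account for role groups, in part after their values were seen. The genes, lists and tests were chosen with earlier results of these data known. Some genes that these rules select are not reported here, though counts include them. Tables and figures were made in Python 3.11.15 (numpy 2.4.6, pandas 2.3.3, matplotlib 3.10.9).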

Additional observations from a re-analysis of the deposited data

Results flagged for a closer look

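Each of the 40 tested Gpr-named genes was examined for a library far from the other 5 among the 6 KO libraries, on the log2 scale by Dixon's gap criterion at the 95% level. It singled out 3 libraries, where chance alone gives about 1 in 20 groups. For Gpr37, sgRNA2 KO replicate 2 was highest with 437 normalized read counts, and the remaining KO values were 37 to 79. Gpr149 was listed at 0 in sgRNA1 KO replicate 3, the lowest, against 17 to 100 in the others. For Gpr107, sgRNA2 KO replicate 3 was highest with 7593, and the remaining KO values were 5024 to 5696.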

How the results depend on the processing

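In KO against control, the 19 called genes were 17 to 25 under the alternatives that kept all libraries. These were pseudocounts of 0.5 and 5, no filter, a mean of at least 50, quantile and median-of-ratios scaling, and variance weights. In these fits 29.7% to 55.9% of all genes were called, the most with variance weights, which gave the 25. The count was 24 without both KO libraries nearest the controls, and 13 to 21 when 1 library was left out. The lowest counts came without control replicates 1, 2 and 3 (14, 13 and 13), where 24.7%, 17.5% and 19% of all genes were called. With 1 library left out, the 18 genes called with sgRNA1 were 5 to 25, the 15 called with sgRNA2 were 3 to 18, and the 0 called between guides were 0 to 1. Of the 19 called genes, 12 kept their call in every alternative in which they were tested (Gpr61 was not tested at a mean of at least 50) and 7 lost it in some. Over 412 values of 23 named genes under alternatives, 381 kept direction and side of the threshold, 25 fell short of it and 6 newly passed it, with 0 reversed; the cause was not tested. Replicate numbers are not stated to pair the samples. Libraries with the same number had correlations of deviations of -0.35 to 0.33. Libraries with different numbers were not compared, so these values do not settle whether samples were paired. With the replicate block 20 genes were called in KO against control (36.6% of all genes), 17 with sgRNA1, 11 with sgRNA2 and 0 between guides. Nothing particular to the Gpr-named genes is read from the changed counts. In that fit the call of Gpr180 was lost (adjusted p = 0.0544 in limma) and Gpr55 passed (0.0391). With a pseudocount of 5 the log2 fold change of Gpr37 was 3.82. Low counts limit Gpr37, Gpr61 and the 19 genes under the filter.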
